A study of Mus musculus with 8 samples.

Results

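The interleukin genes of tumor endothelial cells (TECs) were examined as a gene family: every gene symbol that begins with Il and a digit, leaving out symbols that end as pseudogenes or as antisense or opposite-strand transcripts. The rule uses names and no expression values. It found 82 of the 33641 gene symbols, and all 82 matched a single gene of GENCODE vM21. They hold the interleukins themselves, their receptor chains and a few secreted inhibitors, and also Il4i1, which encodes a secreted amino acid oxidase and no interleukin.

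RNA was sequenced from CD45-CD31+ cells sorted by FACS from microdissected lung tumors at day 21 after inoculation of cells of the mouse Lewis lung carcinoma (LLC) line into the lung, with 4 control libraries (C1 to C4) and 4 endFoxf1+/- libraries (H1 to H4). The endFoxf1+/- mice (Pdgfb-iCreER; Foxf1 fl/+) were on a C57Bl/6 background and carried a tamoxifen-activated Cre recombinase driven by the Pdgfb promoter, which is active in endothelial cells, so that tamoxifen removed exon 1 of 1 Foxf1 allele there, and the injected LLC cells kept their own Foxf1. Controls are described as Foxf1 fl/+ littermates without Cre or with the Cre transgene alone, given tamoxifen, and for this tumor model also as wild-type C57Bl/6 mice. The age is given as 6 to 8 weeks at tamoxifen and also at inoculation, which came 21 days before the cells were sorted. Whether a library holds cells of 1 mouse or of several is not given in the sources used here, so the p-values measure the spread between libraries.

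Interleukins are secreted signals between cells, named by number rather than by structure, and they fall into families by the receptors they share. The IL-1 family (IL-1, IL-18, IL-33, IL-36) signals through receptors with an intracellular domain like that of Toll-like receptors and the adaptor MyD88. The gp130, common gamma chain, IL-10 and IL-12 families signal through Janus kinases and STAT transcription factors, and the IL-17 family through its own adaptor. Endothelial cells are well known as responders to IL-1, which induces adhesion molecules and chemokines in them, and as cells that answer IL-6 mainly through soluble IL-6 receptor, because they carry gp130 but little IL-6 receptor of their own. IL-33 is a nuclear alarmin stored in endothelial and epithelial cells, released on damage and bound by the receptor ST2, the product of Il1rl1.

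The values are TPM, which are scaled to the same total in every library, divided by transcript length and can be compared between genes. Foxf1 itself stood at 213, 285, 296 and 331 TPM in the control libraries and at 177, 203, 14 and 105 TPM in libraries H1 to H4. Every endFoxf1+/- library lay below every control library, a difference in mean log2(TPM + 1) of -1.68 (two-sided exact permutation test, p = 0.0286, as low as 4 against 4 libraries can go), and of -0.83 without library H3 (exact p = 0.0571, the smallest for 4 against 3). Library H3 stood apart from the others. Its 20 endothelial markers were at 5.37% of their control level, against 54.5% in H4, 102 to 106% in H1 and H2 and 83.9 to 109% in the control libraries. Its summed TPM of 8 pan-leukocyte markers was 1301 against 110 to 178 in the controls and 168 to 223 in H1, H2 and H4, and all 8 of these genes were highest in it. Fold changes of the genes described in full are therefore given with and without that library. All 8 libraries shared a sequencing run and lane, and the part of any other batch was not tested.

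Of the 82 genes, 8 were listed at 0 in every library (Il1f5, Il1f6, Il1f8, Il1f10, Il11ra2, Il20, Il20ra and Il25), 22 were above 0 but under 1 TPM throughout, and 52 reached 1 TPM in at least 1 library. The 82 genes together summed to 945.5 to 1115 TPM in the control libraries and to 835.5 to 1073 TPM in the endFoxf1+/- libraries. Il2rg, Il6st and Il4ra, the 3 most abundant, held 49.9% of the interleukin TPM, and with Il1b and Il33 the share came to 58.8%. Il1b is among these 5 through H3: without that library Il10rb took its place, and the shares were 54.0% and 63.2%.

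**Figure D1:**
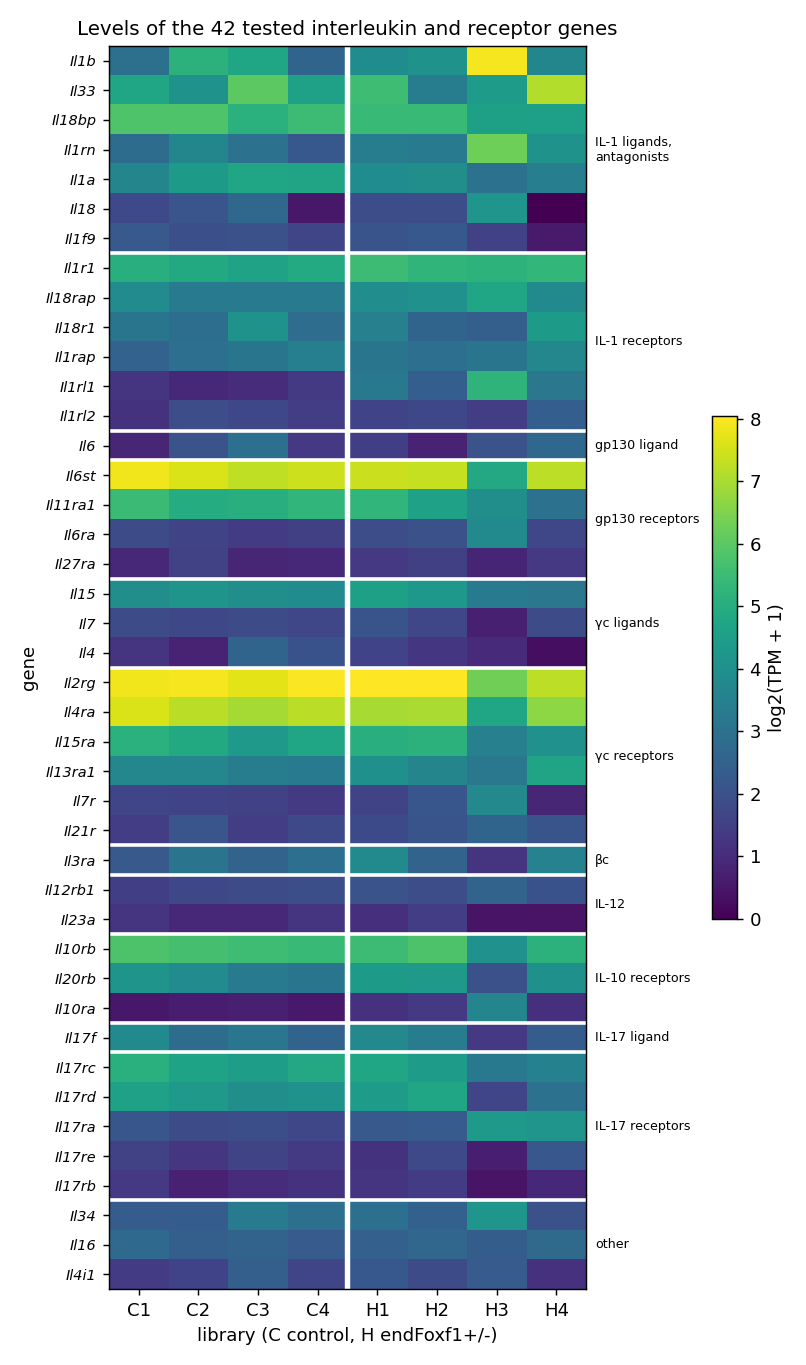
Level of the 42 tested interleukin and receptor genes (rows, grouped by family) in the 8 libraries (columns), coloured by log2(TPM + 1) from dark (low) to yellow (high). Il6st, Il2rg and Il4ra are the brightest rows in the control libraries and darker in H3, while Il1b, at 242 TPM, is brightest in H3.

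The comparison asked which interleukins and receptors differed between endFoxf1+/- and control TECs. A gene was tested where it reached 1 TPM in at least 4 libraries, which held for 42 of the 82 genes and for 14964 genes in all. Il10ra passed this filter only through the endFoxf1+/- group. At an adjusted p under 0.05 (limma with Benjamini-Hochberg adjustment over all genes tested) 0 interleukin genes passed, as did 0 of the 14964 genes (0.0%). The smallest adjusted p among the 42 was 0.790. At an unadjusted p under 0.05, 5 of the 42 passed, against 5.59% of all genes tested. Of these 5 genes, 4 were higher in endFoxf1+/- TECs (Il1rl1, Il17ra, Il18rap and Il1r1; 2.82% of all genes) and 1 was lower (Il1a; 2.77% of all genes). For 4 genes every endFoxf1+/- library was above every control library (Il1rl1, Il1r1, Il17ra and Il10ra, or 3 genes without Il10ra, which owes its test to that group; 2.73% of all genes), and for 0 genes every one was below (2.31% of all genes). Under median ratio scaling these counts were 5 and 2, against 490 and 462 of all genes. Without H3 the genes at an unadjusted p under 0.05 were Il1rl1, Il1r1, Il18rap and Il20rb, and Il10ra, which owes its test to the endFoxf1+/- group (5 genes, or 4 without it), all higher in endFoxf1+/- TECs, where 723 of the 14964 genes passed and were higher and 351 passed and were lower. In these bulk libraries a fall in a transcript can come from fewer cells of the type that makes it or from less RNA per cell, and the 2 cannot be told apart.

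Across the 42 tested genes, 22 were higher and 20 lower in endFoxf1+/- TECs on the log2(TPM + 1) scale, 52.4% higher against 32.0% of all genes tested. Their median log2 fold change was 0.07 against -0.17 for all genes tested. Scaling the libraries by their median ratio moved the median of all genes by 0.16, after which 26 of the 42 and 7325 of the 14964 genes were higher, and quantile normalization gave 25 and 6666. The difference between the medians was 0.24 before the scaling and 0.23 after it. Without library H3 that difference was 0.07, and under limma's array weights, which gave H3 little weight, it was 0.03.

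**Figure D2:**
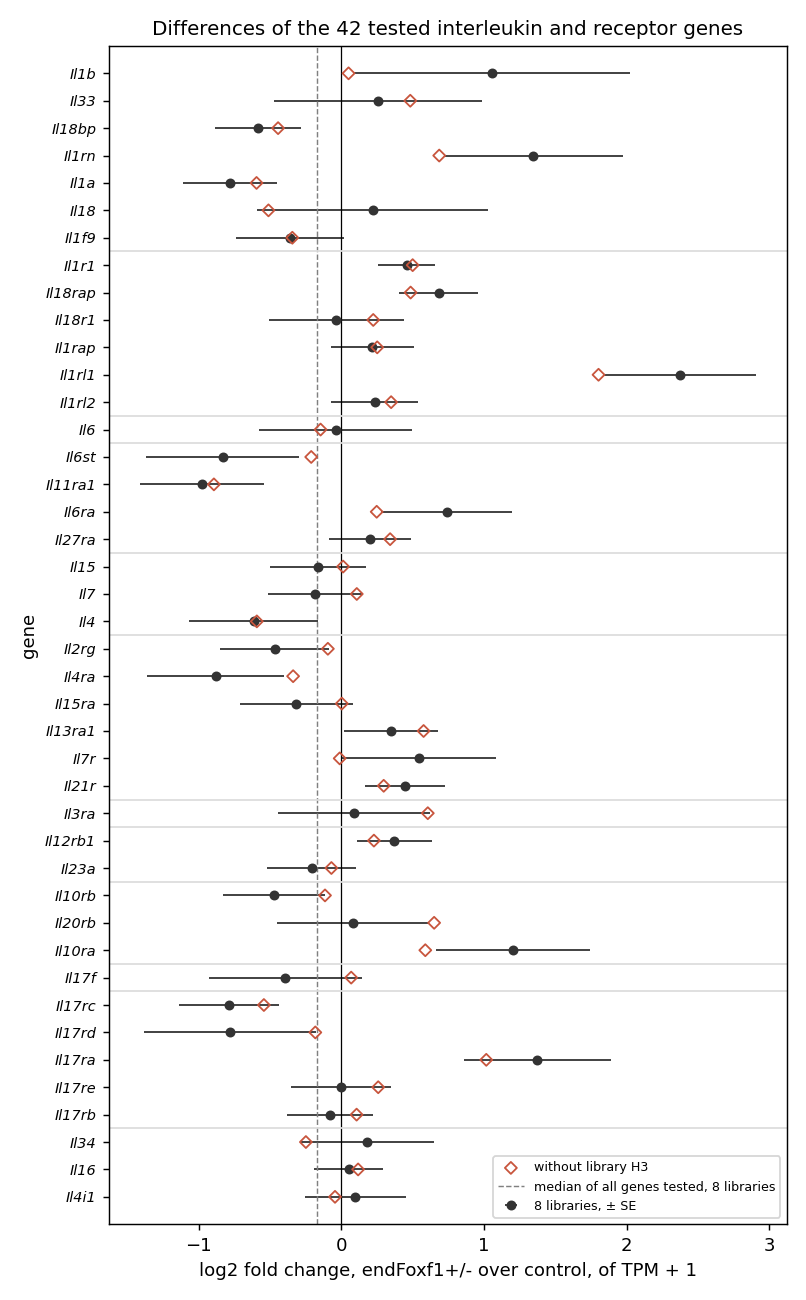
Log2 fold change of TPM + 1 (endFoxf1+/- over control) of the 42 tested interleukin and receptor genes, grouped by family. Filled points with bars are the fit to 8 libraries ± SE, open diamonds the fit without library H3, and the dashed line the median of all genes tested (-0.17). Il1rl1 lies farthest to the right in both fits (2.37 and 1.80).

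Il1rl1 had the largest difference of the 42 tested genes. It encodes ST2, the receptor for IL-33. Its transcripts were at 1.31, 0.92, 1.04 and 1.55 TPM in control libraries C1 to C4 and at 8.41, 4.26, 36.1 and 8.03 TPM in libraries H1 to H4. All 4 endFoxf1+/- libraries lay above all 4 control libraries, the lowest of them 2.74 times the highest control. The group means were 1.21 ± 0.28 and 14.2 ± 14.8 TPM (SD, n = 4 each), an 11.8-fold ratio. Without H3 the endFoxf1+/- mean was 6.90 ± 2.30 TPM (SD, n = 3) and the ratio 5.73. In the fit the log2 fold change was 2.37 (SE 0.53, unadjusted p = 0.00139, adjusted p = 0.790 from limma), and Il1rl1 ranked 13 by p among the 14964 genes. Without H3 it was 1.80 (adjusted p = 0.404 from limma), and with array weights 1.90 (adjusted p = 0.0252 from limma, where 148 of the 14964 genes passed), the only alternative in which an interleukin gene passed the threshold. The unadjusted p was 0.00475 or less with any 1 library left out. With Ptprc as a covariate the log2 fold change was 1.56 (unadjusted p = 0.00637 from limma). Taken relative to Ptprc in each library, the difference in mean log2(TPM + 1) was 0.97 (two-sided exact permutation test, p = 0.114), and 1.15 without H3.

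Other transcripts moved with Il1rl1. The summed TPM of 6 fibroblast markers was 34.8 to 91.9 in the control libraries and 166, 106, 1311 and 290 in H1 to H4, which likewise did not overlap, and 3 of the 6 did so one by one. The pan-leukocyte sum overlapped (the lowest endFoxf1+/- library, H4, at 168, under the 178 of C2), but 2 of these 8 markers and 3 of 10 macrophage and monocyte markers did not overlap and were higher in endFoxf1+/-, and all 8 and all 10 were higher on average. Of all genes tested, 2.73% were higher without overlap. Without H3, Coro1a (-0.22) and Ly6c2 (-0.006) were lower in mean log2(TPM + 1), and the other markers of both lists were still higher. Of the mast cell and basophil markers, whose cells are known for ST2, Kit was high in every library but H3 and is also an endothelial transcript, while the defining markers Cpa3, Mcpt8, Ms4a2, Fcer1a and Tpsb2 ran from 0 to 4.91 TPM and overlapped between the groups. Cpa3 (3.12 TPM) and Fcer1a (4.91 TPM) were highest in H4, Mcpt8 (2.82 TPM) and Ms4a2 (1.21 TPM) in C3, and Tpsb2 was above 0 in H3 alone. The part of these other cells in the Il1rl1 result was not tested. The values are given per gene, so that the membrane and soluble forms of ST2 cannot be told apart.

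**Figure D3:**
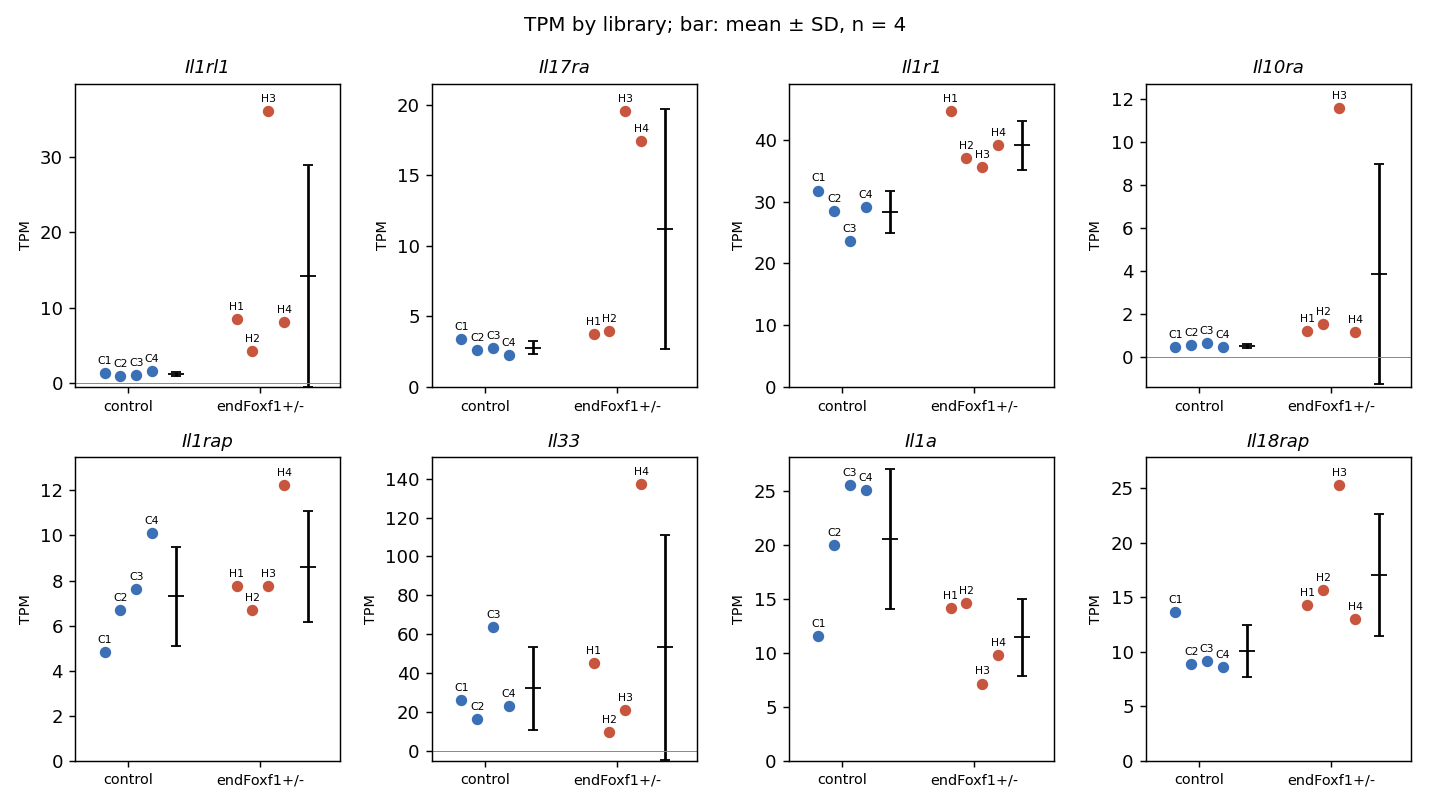
TPM of 8 interleukin and receptor genes in each library (points, blue control C1 to C4, red endFoxf1+/- H1 to H4), with the group mean ± SD (n = 4) as a bar beside them. Il1rl1, Il17ra, Il1r1 and Il10ra do not overlap between the groups, Il1rap, Il33, Il1a and Il18rap do.

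Il1rl1 is a gene of the IL-1 receptor cluster on chromosome 1, at chr1:40429570-40465415 on the plus strand of GRCm38. The cluster holds 6 genes of the family in a row (Il1r2, Il1r1, Il1rl2, Il1rl1, Il18r1 and Il18rap) over 478 kb (chr1:40074079-40551705) with 0 other protein-coding genes between them. Their differences in mean log2(TPM + 1) were 1.20 for Il1r2, 0.46 for Il1r1, 0.23 for Il1rl2, 2.37 for Il1rl1, -0.04 for Il18r1 and 0.68 for Il18rap, and 0.45, 0.50, 0.35, 1.80, 0.22 and 0.49 without H3. Il18r1, whose gene starts next to the end of Il1rl1, overlapped between the groups: its TPM was 7.77, 6.54, 16.4 and 6.33 in the controls and 10.2, 5.02, 4.44 and 19.7 in H1 to H4.

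**Figure D4:**
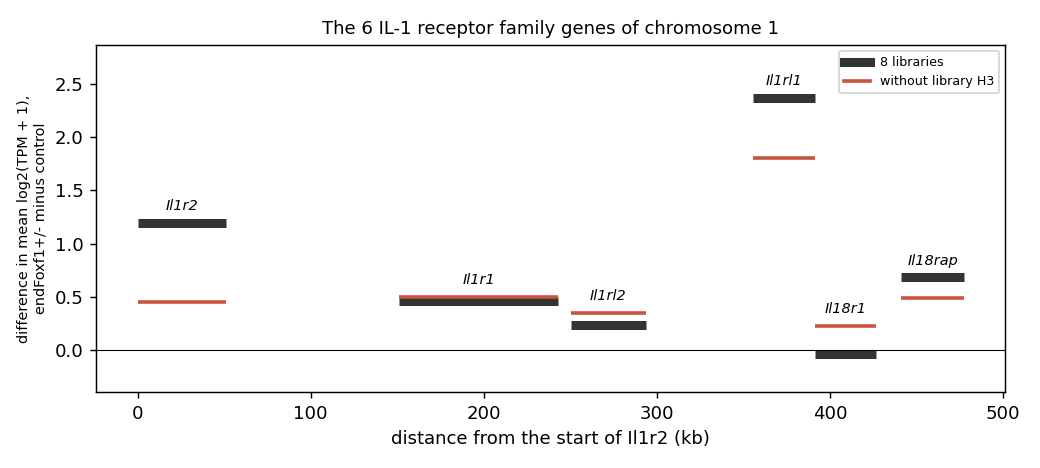
The 6 IL-1 receptor family genes of chromosome 1 along the cluster (x axis, kb from the start of Il1r2), each drawn over its own extent at its difference in mean log2(TPM + 1), endFoxf1+/- minus control (y axis). Thick dark bars use 8 libraries and thin red bars leave out H3, and Il1rl1 (2.37 and 1.80) stands above its neighbours in both.

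Since FOXF1 is a forkhead protein, the promoters were searched for the forkhead core TAAACA on either strand (read as TGTTTA on the other). The windows, from RefSeq on GRCm38.p6, run from 250 bases before a gene's start to 50 after it. The core was found in 13.4% of all 32851 windows, in 15 of the 80 windows of interleukin genes (18.8%) and in 7 of the 45 windows of tested ones (15.6%). Both start sites of Il1rl1 held it, and the stretches are shown because this is the gene with the largest difference, plus strand, with the core in capitals.
Il1rl1 first start, chr1:40429497-40429526: gaaacagggaggTGTTTAgagatagggtgg
Il1rl1 second start, chr1:40439501-40439530: tggacattatggTAAACAgcatTGTTTAtc
The match at the first start lay 61 bases before it, and the upstream one of the 2 matches at the second start 116 bases before it. The core was also found in both windows of Il33 and in those of the cluster neighbours Il1r2 and Il1rl2, all genes whose groups overlapped. Neither start of Il1r1 held the core, nor did the windows of Il18r1 and Il18rap, and the windows of Il17ra and Il10ra were not in the table. A match is a description of letters, not a binding site.

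The gene of the ST2 ligand, Il33, was at 26.1, 16.3, 63.8 and 23.3 TPM in the controls and at 45.5, 9.69, 20.9 and 137 TPM in H1 to H4. The groups overlapped widely, with the lowest and the highest library both in the endFoxf1+/- group (log2 fold change 0.26, SE 0.73, adjusted p = 0.925 from limma, and 0.48 without H3). The summed TPM of 7 epithelial markers was 9452, 6064, 28846 and 7974 in C1 to C4 and 9727, 2282, 1489 and 21151 in H1 to H4. C3 and H4 were highest for this sum, for Il33 and for Il18r1, while H3 was lowest for the sum but not for Il33. The part of epithelial cells in these values was not tested. The co-receptor Il1rap, which ST2 and the IL-1 receptor share, ran from 4.82 to 10.1 TPM in the controls and from 6.69 to 12.2 TPM in endFoxf1+/-.

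Il1r1, the signaling receptor for IL-1 alpha and IL-1 beta, was the most abundant receptor of the IL-1 family. It stood at 31.8, 28.5, 23.6 and 29.1 TPM in C1 to C4 and at 44.6, 37.1, 35.5 and 39.1 TPM in H1 to H4. The groups did not overlap, though by a narrow margin, the lowest endFoxf1+/- library being 1.12 times the highest control, and H3 was the lowest of its group rather than the highest. The means were 28.3 ± 3.40 and 39.1 ± 3.96 TPM (SD, n = 4 each), with a log2 fold change of 0.46 (SE 0.20, unadjusted p = 0.0460, adjusted p = 0.790 from limma) and of 0.50 without H3. Across the 8 fits that leave out 1 library it stayed between 0.38 and 0.51, and the unadjusted p was 0.0126 without H3 and 0.0526 to 0.140 without any other library. With Ptprc as a covariate it was 0.52 (unadjusted p = 0.0402 from limma). The gene overlaps a predicted gene on its own strand, to which reads could also belong.

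Il18rap, the accessory chain of the IL-18 receptor, was at 13.7, 8.90, 9.12 and 8.64 TPM in the controls and at 14.3, 15.7, 25.3 and 13 TPM in H1 to H4. Control library C1 lay above H4, so the groups overlapped (log2 fold change 0.68, SE 0.28, unadjusted p = 0.0363, adjusted p = 0.790 from limma, and 0.49 without H3). The unadjusted p was 0.0572 to 0.0941 without C2, C3, C4 or H2. With Ptprc as a covariate the log2 fold change of Il18rap was 0.34 (unadjusted p = 0.21 from limma). Il1r2, the decoy receptor that binds IL-1 without signaling, was under 0.7 TPM in every control and at 1.68, 0.44, 15.4 and 1.22 TPM in H1 to H4, too low in most libraries to be tested. Il1rl2, the IL-36 receptor, was at 1.26 to 2.75 TPM in the controls and at 1.76 to 4.29 TPM in endFoxf1+/-. Of the 6 tested receptors of the family 5 had a higher mean log2(TPM + 1) and 1, Il18r1, a lower one by 0.04, though its mean TPM was higher (9.86 against 9.26), and all 6 were higher under median ratio scaling, under quantile normalization and without H3. Of the 14964 genes tested, 4782 were higher in the main fit, and 7325, 6666 and 7740 in those settings in turn.

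The ligands of the IL-1 family went in different directions, 4 of 7 tested higher and 3 lower, and without H3 3 higher and 4 lower. Il1a, which encodes IL-1 alpha, was at 11.6, 19.99, 25.6 and 25.1 TPM in C1 to C4 and at 14.2, 14.6, 7.17 and 9.84 TPM in H1 to H4. C1 fell within the range of the endFoxf1+/- libraries and the other controls lay above it (log2 fold change -0.78, SE 0.33, unadjusted p = 0.0405, adjusted p = 0.790 from limma, and -0.60 without H3, unadjusted p = 0.0769). Without C2, C3, C4 or H4 the unadjusted p of Il1a was 0.0781 to 0.112. With Ptprc as a covariate its log2 fold change was -0.49 (unadjusted p = 0.198 from limma). Il1b, which encodes IL-1 beta, was at 6.74, 34.7, 25.2 and 5.06 TPM in the controls and at 14, 16.3, 242 and 12 TPM in H1 to H4, so that its log2 fold change of 1.05 (SE 0.97, adjusted p = 0.797 from limma) became 0.05 without H3. The summed TPM of 6 neutrophil markers was 20.3, 80.8, 74.0 and 10.3 in C1 to C4 and 23.6, 54.4, 448 and 68.3 in H1 to H4. The part of neutrophils in the Il1b values was not tested. Il1rn, the IL-1 receptor antagonist, was at 3.64 to 11.9 TPM in the controls and at 9.37, 9.23, 75.7 and 16.6 TPM in H1 to H4, again highest in H3, with a difference in mean log2(TPM + 1) of 1.34 and of 0.69 without H3. Il18bp, which binds and blocks IL-18, was at 34.3 to 56.0 TPM in the controls and 22.1 to 42.7 TPM in endFoxf1+/-, against 0.42 to 5.61 and 0 to 17.3 TPM for Il18. It was above Il18 in every library, but the levels were close in H3, at 22.7 TPM for Il18bp and 17.3 TPM for Il18. Il1f9, the gene of IL-36 gamma, stayed under 4 TPM in every library. Il1b and Il1a each overlap a gene on the opposite strand, and the strand setting of the quantification is not given in the sources used here.

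All 5 receptor chains of the IL-17 family were tested, and 1 of its 6 ligands. Il17ra, the chain shared by the family's receptors, was at 3.40, 2.65, 2.77 and 2.29 TPM in the controls and at 3.77, 3.98, 19.5 and 17.4 TPM in H1 to H4. The groups did not overlap, but H1 and H2 lay just above C1 while H3 and H4 were several times higher (log2 fold change 1.37, SE 0.51, unadjusted p = 0.0243, adjusted p = 0.790 from limma). It was 1.02 without H3 (unadjusted p = 0.0595) and 0.38 without H3 and H4 (unadjusted p = 0.105), the libraries with the fewest endothelial transcripts, and the unadjusted p was 0.0548 without C4 and 0.0714 without H4. With Ptprc as a covariate the log2 fold change of Il17ra was 0.99 (unadjusted p = 0.13 from limma). The 4 other receptors, Il17rc, Il17rd, Il17rb and Il17re, had a lower mean log2(TPM + 1), with H3 the lowest library for each. For Il17re the difference was -0.0022, and its mean TPM was higher (1.96 against 1.76). Il17re was higher on the log2 scale under median ratio scaling, under quantile normalization and without H3, and Il17rb was higher without H3. Il17rc, the partner of Il17ra in the receptor for IL-17A and IL-17F, was at 33.3, 24.5, 21.6 and 28.1 TPM in the controls and at 25.6, 20.7, 8.58 and 10.6 TPM in H1 to H4 (log2 fold change -0.79, SE 0.35, adjusted p = 0.790 from limma, and -0.54 without H3). Il17f was the only ligand tested, at 4.93 to 13.3 TPM in the controls and 1.52 to 12.6 TPM in endFoxf1+/- (log2 fold change -0.39, SE 0.53, adjusted p = 0.844 from limma, and 0.068 without H3). Il17a, Il17b, Il17c and Il17d were under 1 TPM in every library.

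In the gp130 family, Il6st, the shared signaling chain gp130, was among the most abundant transcripts examined. It was at 230, 192, 154 and 172 TPM in the controls and at 169, 161, 27.7 and 149 TPM in H1 to H4. H3 alone was far below the rest, and the log2 fold change of -0.83 (SE 0.54, adjusted p = 0.790 from limma) was -0.21 without it. The chains that make gp130 specific were much lower for IL-6 than for IL-11. Il6ra was at 1.69 to 2.68 TPM in the controls and at 2.74, 2.94, 13.2 and 2.30 TPM in H1 to H4. Il11ra1 was at 43.3, 30.8, 31.6 and 38.2 TPM in the controls and at 38.2, 23.2, 14.6 and 7.06 TPM in H1 to H4, a gene that several others overlap and that has a near-identical copy, Il11ra2, listed at 0. Il6, the only ligand of the family tested, was at 0.80 to 6.73 TPM in the controls and 0.71 to 5.37 TPM in endFoxf1+/- (log2 fold change -0.04, SE 0.54, adjusted p = 0.987 from limma, and -0.15 without H3). Il11 and Il27 reached 1 TPM in H1 and H3 respectively, and Il31 in none.

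Il2rg, the common gamma chain, was the most abundant interleukin gene of all in these CD45-CD31+ cells. It was at 233, 240, 207 and 254 TPM in the controls and at 261, 262, 76.8 and 151 TPM in H1 to H4. H1 and H2 lay above every control and H3 and H4 below every control (log2 fold change -0.47, SE 0.38, adjusted p = 0.797 from limma, and -0.095 without H3). Its gene overlaps a predicted gene on its own strand. Il4ra, the chain for IL-4 and IL-13, was at 189, 146, 123 and 146 TPM in the controls and at 127, 129, 25.3 and 100 TPM in H1 to H4. Only H3 stood far off (log2 fold change -0.88, SE 0.48, adjusted p = 0.790 from limma, and -0.34 without H3). Its partner for IL-13, Il13ra1, was at 9.19 to 12.3 TPM in the controls and at 15.3, 11.5, 8.29 and 24.9 TPM in H1 to H4.

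The chains of this family that are known from lymphocytes were low. Il2rb, which binds IL-2 and IL-15, was at 0.35, 0.13, 0.50 and 0.08 TPM in the controls and at 0.88, 0.86, 5.40 and 1.21 TPM in H1 to H4, and Il2ra was at 0.48, 0.48, 0.21 and 0.33 TPM against 0.70, 0.69, 1.70 and 0.83 TPM. Neither overlapped between the groups, but both were too low to be tested and are not in the counts above. Il7r was at 1.59 to 2.20 TPM in the controls and at 2.13, 3.43, 12.6 and 0.81 TPM in H1 to H4. Of the ligands, Il15 was the most abundant, at 14.8, 16.9, 14.8 and 14.2 TPM in the controls and at 22.7, 18.7, 8.98 and 8.17 TPM in H1 to H4. The controls were tightly grouped, with H1 and H2 above them and H3 and H4 below (log2 fold change -0.16, SE 0.34, adjusted p = 0.893 from limma, and 0.012 without H3). Its presenting receptor Il15ra was at 19.0 to 34.5 TPM in the controls and at 32.7, 35, 10.3 and 15.9 TPM in H1 to H4, where H3 and H4 were again the lowest libraries.

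In the IL-10 family, Il10ra and Il10rb, which pair to form the IL-10 receptor, were at unlike levels. Il10ra, the chain specific to IL-10, was at 0.44, 0.53, 0.64 and 0.47 TPM in the controls and at 1.20, 1.52, 11.6 and 1.15 TPM in H1 to H4. The groups did not overlap, and H3 was several times above the other libraries (log2 fold change 1.20, SE 0.54, unadjusted p = 0.0517, adjusted p = 0.790 from limma, and 0.59 without H3). With Ptprc as a covariate it was 0.29 (unadjusted p = 0.466 from limma). Il10rb, the chain that IL-10 shares with IL-22 and the lambda interferons, was far more abundant, at 53.9, 50.0, 45.3 and 42 TPM in the controls and at 44.5, 54.5, 15.6 and 34.8 TPM in H1 to H4, a spread in which H3 was lowest (log2 fold change -0.47, SE 0.36, adjusted p = 0.792 from limma, and -0.12 without H3). Il20rb was at 7.67 to 16.7 TPM in the controls and at 19.6, 19.5, 2.95 and 15.4 TPM in H1 to H4. Il10 itself reached 1 TPM in H3 (1.71 TPM) and in no other library. Il10ra and Il10rb both overlap other genes.

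Among the remaining families, Il12rb1, shared by the receptors for IL-12 and IL-23, was at 1.84 to 2.83 TPM in the controls and at 2.70 to 4.92 TPM in endFoxf1+/- (log2 fold change 0.37, SE 0.26, adjusted p = 0.790 from limma, and 0.23 without H3). Il23a was close to 1 TPM in the controls, 0.86 to 1.36, and at 0.34 to 1.75 TPM in endFoxf1+/- (log2 fold change -0.21, SE 0.31, adjusted p = 0.855 from limma, and -0.070 without H3). Il3ra, the IL-3 receptor chain, was at 3.77 to 7.50 TPM in the controls and at 13.3, 4.90, 1.37 and 10.7 TPM in H1 to H4, on both sides of the controls (log2 fold change 0.09, SE 0.53, adjusted p = 0.969 from limma, and 0.61 without H3). Il34, a ligand of the CSF-1 receptor, was at 4.10 to 8.64 TPM in the controls and at 6.70, 4.63, 17.2 and 2.99 TPM in H1 to H4, with H3 above every control and H4 below every control. Il16 hardly varied, from 3.94 to 5.81 TPM over all 8 libraries.

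The genes were then set against Ptprc, which encodes the leukocyte antigen CD45 that the sort selected against. Ptprc was at 8.21, 6.42, 9.13 and 2.94 TPM in the controls and at 16.5, 9.93, 91.2 and 6.61 TPM in H1 to H4. H3 held 5.52 times the next highest library while the others overlapped (difference in mean log2(TPM + 1) 1.41, exact two-sided permutation test, p = 0.114). Of the 52 genes that reached 1 TPM in a library, 4 followed Ptprc over the 8 libraries, with both Pearson's r and Spearman's rho at 0.7 or above: Il10ra, Il2rb, Il6ra and Il18rap. Their r was 0.872 to 0.928 and their rho 0.738 to 0.905. How many of all genes meet this rule was not counted, so the 4 of 52 cannot be set against a background. After adjustment over the 52 genes the permutation p was 0.120 for each r, and 0.237 for the rho of Il18rap and 0.476 for that of the other 3. With H3 alone left out, r was 0.566 for Il10ra, 0.611 for Il2rb, 0.572 for Il6ra and 0.645 for Il18rap, and rho 0.679, 0.643, 0.607 and 0.857. Without the 2 libraries farthest from the median Ptprc level, H3 and C4, r was 0.442, 0.341, 0.396 and 0.463, so that the relation rests on those libraries.

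**Figure D5:**
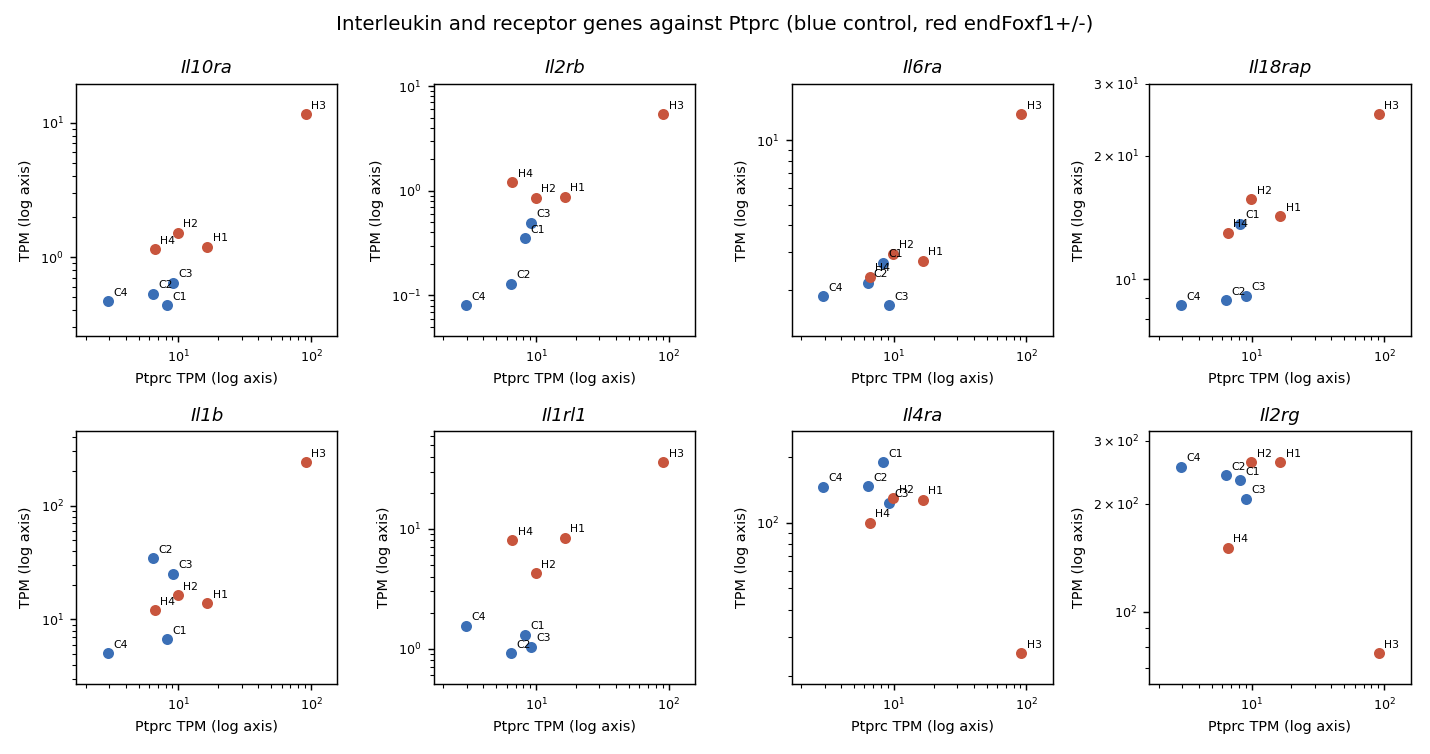
TPM of 8 interleukin and receptor genes (y axis, log) against Ptprc TPM (x axis, log) in the 8 libraries, blue control and red endFoxf1+/-. H3, at 91.2 TPM of Ptprc, is the single point far to the right, at the top for Il10ra, Il2rb, Il6ra, Il18rap, Il1b and Il1rl1 and at the bottom for Il4ra and Il2rg.

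Without H3 none of these 4 passed the same rule, and the 1 gene that did was Il20rb. The 3 tested genes of the 4 were all higher in endFoxf1+/- TECs, and their median log2 fold change was 0.74 (0.68 to 1.20), and 0.49 without H3, the library on which the choice of these genes rests. Since Ptprc was itself higher in endFoxf1+/-, the choice of these genes favours a higher mean there, which is no separate result, and Il10ra, at the upper end, owes its test to that group. Among the other 48 genes 39 were tested, 19 higher and 20 lower, with a median of -0.0022. Il1b, Il1r2, Il2ra and Il7r had r of 0.837 to 0.933 with Ptprc but rho of 0.524 to 0.619, their order outside H3 being different. Il1rl1 had an r of 0.829 and a rho of 0.643, and Il17ra an r of 0.625 and a rho of 0.714, so that neither counted among the followers over the 8 libraries. Il1rl1 did count without C1, C3, C4 or H4, and Il17ra under median ratio scaling, without H4 and without H3 and H4. A rule with the threshold at 0.5 takes in all of these and 14 genes in all, and at 0.9 it takes in 0.

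The same rule applied to the mean of the 20 endothelial markers named 7 genes: Il2rg, Il4ra, Il15ra, Il17rb, Il17rc, Il17rd and Il23a. The share of all genes that it names was not counted either. All 7 were tested, and all were lower in endFoxf1+/- TECs on average, and their median log2 fold change was -0.47 (-0.88 to -0.08). Since the endothelial markers were themselves low in H3 and H4, the choice of these genes favours a lower endFoxf1+/- mean, which is no separate result. Without H3 the median was -0.095, and Il15ra and Il17rb were then higher. The remaining 41 genes followed neither, and of the 32 tested 19 were higher and 13 lower, with a median of 0.09. Il1r1 and Il33 are in this group, as are Il1rl1 and Il17ra with the exceptions just given. Library H3, with its few endothelial transcripts, was the highest of the 8 libraries for 19 of the 52 genes and the lowest for 18, so that it set an end of the range for most of them.

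Downstream and partner genes were taken from lists of names. Of 9 tested shared chains and partners without an interleukin symbol, 0 were higher and 1 was lower at an unadjusted p under 0.05, where 2.82% and 2.77% of all genes were. The 1 gene was Crlf2, the receptor for thymic stromal lymphopoietin that pairs with Il7r, at 25.4, 28, 22.3 and 25.7 TPM in the controls and 16.3, 17.6, 7.01 and 3.80 TPM in H1 to H4. The groups did not overlap (log2 fold change -1.32, SE 0.42, unadjusted p = 0.0116, adjusted p = 0.790 from limma), and without H3 the difference was -1.185. Lifr, a partner of gp130, did not overlap either, at 105 to 164 TPM in the controls and 71.8, 103, 6.06 and 63.5 TPM in H1 to H4, a difference in mean log2(TPM + 1) of -1.51 and of -0.64 without H3. Thus 2 of these 9 genes were lower without overlap, where 2.31% of all genes tested were.

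Of 11 tested Janus kinases and STATs, 10 were lower and 1 was higher on average, with a median log2 fold change of -0.42 against the -0.17 of all genes. Without H3, 6 of the 11 were higher and 5 lower, with a median of 0.06. Of the 8 SOCS inhibitors, which STATs induce and which shut the receptors down, 0 passed, with a median of -0.11 that was 0.02 without H3. Cish, a target of STAT5, did not overlap between the groups, at 50.2 to 70.2 TPM in the controls and 43.2, 48.0, 6.78 and 24.5 TPM in H1 to H4, a difference of -1.15 and of -0.58 without H3. It was the 1 gene of the 8 that was lower without overlap, where 2.31% of all genes tested were. The others overlapped, among them Socs2, with a difference of -0.61 and of -0.17 without H3. Of the 12 tested adaptors and kinases of the IL-1 and IL-17 receptors 0 passed, with a median of -0.08 that was 0.07 without H3. Myd88, the adaptor of ST2 and the IL-1 receptor, was at 18.9 to 21.5 TPM in the controls and 13.8 to 19.5 TPM in endFoxf1+/-.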

How the data were processed

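RNA-seq of FACS-sorted CD45-CD31+ TECs was analysed in 8 libraries, 4 control and 4 endFoxf1+/-, grouped by label. The authors deposited TPM per gene symbol, which were not rescaled. The submitters' processing notes name TopHat, Cufflinks, Subread, DESeq2 and GRCm38/mm10, but the tool and annotation behind the TPM are not given in the sources used here. No read counts were used, so depth is unknown and precision rests on the spread between libraries. Genes that reached 1 TPM in 4 or more libraries were tested on log2(TPM + 1) in R 4.3.3 with limma 3.58.1 (lmFit, eBayes with an intensity trend, two-sided, Benjamini-Hochberg adjustment, threshold 0.05), after a test on simulated data. Fold changes on this scale understate changes of low genes. Single values were compared by exact permutation over 70 assignments. DESeq2, the authors' tool, needs counts and was not run. Coordinates are those of GENCODE vM21.

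Any gene of the family could be named with its TPM. Full statistics were kept for tested genes with an unadjusted p under 0.05 or no overlap, the 5 most abundant, the most abundant tested ligand and receptor of each family, and listed pathway genes with an unadjusted p under 0.05. A result of the pathway lists is not reported here. Lifr, Cish, Socs2, Myd88, Coro1a and Ly6c2 were named after their values were seen. The genes and all lists were chosen with earlier results of these data known. Alternatives were other pseudocounts, filters, scalings and weights, eBayes without a trend, Ptprc as a covariate, and libraries left out.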

Additional observations from a re-analysis of the deposited data

Results flagged for a closer look

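In groups of 4 libraries, a library was picked out where its gap to the nearest other, divided by the range of the group, exceeded 0.829. Of 88 groups examined 8 did so, where chance picks about 1 in 20, and 6 of the 8 were endFoxf1+/- library H3, the library with the fewest endothelial transcripts. H3 was the high one for Il10ra (ratio 0.909, at 11.6 TPM), Il1b (0.904, at 242 TPM) and Il6ra (0.878, at 13.2 TPM). It was the low one for Il6st (0.932, at 27.7 TPM), Il4ra (0.842, at 25.3 TPM) and Il20rb (0.860, at 2.95 TPM). In the control group, C1 was high for Il18rap (0.884, at 13.7 TPM) and C2 for Il27ra (0.919, at 1.97 TPM). Il1rl1 was not among the 8.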

How the results depend on the processing

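Of 19 genes with full statistics, 9 kept their direction in every alternative, among them Il1rl1, Il1r1, Il17ra, Il10ra, Il18rap and Il1a. Among 336 alternative values 29 had the opposite sign. The number at an adjusted p under 0.05 (limma) was 0, and 1 (Il1rl1) under array weights, where 148 of all genes passed against 0. The number at an unadjusted p under 0.05, 5, was 3 with Ptprc as a covariate and 1 to 9 with a library left out (1 without C4, 9 without H1). Over all genes this number was 836, and 710 with the covariate, 479 without C4 and 1332 without H1. The number without overlap, 4, was 1 at a minimum TPM of 5, 7 under median ratio scaling (5 higher and 2 lower), 9 without H3 and H4 (where 3025 of all genes were higher without overlap, against 409) and 4 to 7 with a library left out. Over all genes, 409 were higher and 345 lower without overlap. These were 259 and 259 of 10904 genes at a minimum TPM of 5, and 490 and 462 under median ratio scaling. With a library left out, 490 to 973 were higher and 389 to 862 lower. The 4 that followed Ptprc were 14 at a threshold of 0.5, 0 at 0.9, and 1 to 8 with a library left out (1 without H3, 8 without H4). The Foxf1 difference was -2.09 to -0.83 with a library left out, where p cannot fall below 0.0571, and -0.55 without H3 and H4. The causes of these moves were not tested.

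Under array weights the log2 fold change was 0.40 for Il15, 0.61 for Il17f, -0.037 for Il1b, 0.14 for Il23a and 0.11 for Il2rg. With Ptprc as a covariate it was 0.026 for Il17f, -0.63 for Il1b, 0.036 for Il2rg and 0.047 for Il6st. Without H3 and H4 it was 0.048 for Il10rb, 0.42 for Il15, 0.48 for Il17f, 0.22 for Il23a, 0.17 for Il2rg and -0.39 for Il33. Median ratio scaling gave 0.016 for Il15 and 0.13 for Il6, and quantile normalization 0.058 for Il6. Leaving out a library gave -0.41 to 0.052 for Il15, -0.74 to 0.068 for Il17f, -0.40 to 0.83 for Il33, -0.26 to 0.61 for Il3ra and -0.36 to 0.34 for Il6. No paired analysis was possible because the labels give each library a number of its own that no other library shares, and the numbers 1 to 4 in the library names used here pair nothing.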
